A study of Chlorocebus sabaeus with 18 samples.

Results

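The genes described here are 5 reported splicing targets of the TRA2 proteins: CHEK1 (ENSG00000149554), NASP (ENSG00000132780), SMN1 (ENSG00000172062), FN1 (ENSG00000115414) and CD44 (ENSG00000026508). They were chosen by Ensembl ID in the exon tables, listed alone or joined with an overlapping gene. Together they cover 381 of the 603668 exon bins in the normalised table, where a bin is a stretch of an annotated gene between 2 exon borders. CHEK1 (joined row) has 99 bins, NASP 58, SMN1 31, FN1 93 and CD44 100.

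TRA2A and its paralogue TRA2B are splicing activators with arginine-serine-rich domains. They bind purine-rich stretches inside exons and help the spliceosome to recognise exons with weak splice sites, so loss of TRA2 is known to lead to skipping of such exons. CHEK1 encodes the checkpoint kinase CHK1, and joint loss of both TRA2 proteins in human cancer cells is known to cause skipping of an early internal exon. NASP encodes a histone chaperone whose long internal exon gives the testis form of the protein. SMN1 encodes the survival motor neuron protein, which assembles spliceosomal ribonucleoproteins, and TRA2B binds its exon 7. FN1 encodes fibronectin, whose EDA, EDB and V segments are alternatively spliced. CD44 encodes a hyaluronan receptor with a block of variable exons.

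RNA was sequenced after removal of ribosomal RNA from COS-7 cells, a fibroblast-like kidney line of the African green monkey, in 18 samples that form 6 groups of 3. CGG cells carried 60 CGG repeats in the FMR1 leader, as in the expanded alleles behind the tremor and ataxia syndrome FXTAS. GFP_TRA cells overexpressed TRA2A, siTRA cells had TRA2A knocked down, CGG_siTRA cells had the repeat and the knockdown, CGG_TRA cells had the repeat and the overexpression, and CTL cells were the controls. The labels mention neither an empty vector nor a control siRNA, so effects of transfection and of the named treatment cannot be told apart in any comparison with CTL. Counts cover 15 libraries, lettered a, b and c within a group, and CGG_TRA enters only through the authors' event tables. Whether the 3 samples of a group came from separate cultures is not stated, and the spread behind each p may therefore be technical. The 4 treated groups share the CTL libraries as their control, so their differences from CTL are not independent of each other.

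Totals over all bins were 121142115 to 203957869 counts per library. The gene taken as TRA2A (ENSG00000164548.10) averaged 204610 ± 17342 normalised counts in GFP_TRA, 3914 ± 917 in siTRA, 4274 ± 221 in CGG_siTRA and 16252 ± 701 in CGG, against 17096 ± 166 in CTL (SD, n = 3 each). It was found by this behaviour, which 1 gene showed, so its level is little proof of the labels. Of the markers of the tissue and the other genes of these pathways, none could be looked up, because the files do not pair IDs with names.

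FN1 fell in every treated group, NASP fell in both knockdown groups relative to CTL, and SMN1 and CD44 passed the test in none of the 7 comparisons. FN1 had 740330, 738220 and 706930 normalised counts in CGG, 812580, 754300 and 821840 in GFP_TRA, 846390, 732920 and 664540 in siTRA, and 836340, 912500 and 638550 in CGG_siTRA, against 1688600, 1277200 and 1495300 in CTL. All 12 treated libraries lay below all 3 CTL libraries, an arrangement seen for 10.7% of 14970 genes. The log2 difference from CTL was -1.01 in CGG (adjusted p = 8.76e-06), -0.92 in GFP_TRA (adjusted p = 2.52e-05), -0.93 in siTRA (adjusted p = 1.10e-05) and -0.78 in CGG_siTRA (adjusted p = 8.96e-05), each with an SE of 0.12, in edgeR's quasi-likelihood fit, adjusted by Benjamini-Hochberg over all genes. In the same tests 24.2%, 28.9%, 38% and 30.9% of 14969 genes passed, in that order of comparisons. The knockdown difference in cells with the repeat, 0.23 in CGG_siTRA vs CGG (SE 0.12, adjusted p = 0.278, edgeR; 0.38 and adjusted p = 0.0232 without CGG_siTRA library c), exceeded that without it by 1.16 (SE 0.17, adjusted p = 1.42e-04, edgeR), and 19.4% of genes passed that test. Since bulk samples were sequenced, fewer cells of a kind and less RNA per cell cannot be told apart.

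NASP had 45123, 51243 and 51136 normalised counts in siTRA and 48195, 46297 and 48625 in CGG_siTRA. CGG had 56091, 54374 and 55111, GFP_TRA had 61053, 62931 and 70744, and CTL had 58938, 62696 and 57603. In these counts, scaled by the authors' size factors, all 6 knockdown libraries were thus below the 9 others. The share of all genes with this arrangement was not computed. Against CTL the log2 difference was -0.22 in siTRA (SE 0.06, adjusted p = 0.00913, edgeR). In CGG_siTRA it was -0.20 (SE 0.06, adjusted p = 0.0195, edgeR). With siTRA library a left out the first lost the threshold (-0.17, adjusted p = 0.0625, edgeR). The second did so with CTL library b left out (-0.18, adjusted p = 0.0789, edgeR) or with CGG_siTRA library b left out (-0.19, adjusted p = 0.0658, edgeR), and also with the highest bin standing for the gene (-0.11, adjusted p = 0.284, edgeR). In CGG_siTRA vs CGG the difference was -0.11 (SE 0.06, adjusted p = 0.321, edgeR), where 10.2% of genes passed. With the authors' size factors it was -0.21 and passed (adjusted p = 0.0373, edgeR). NASP was 0.33 higher on the log2 scale in GFP_TRA than in siTRA (SE 0.06, adjusted p = 6.78e-04, edgeR), a comparison in which 31.6% of genes passed.

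CHEK1 cannot be summed from its row, because the authors' counting joined it with ENSG00000134910, a neighbour whose bins hold most of the row's counts. The bins from number 54 on, chromosome 11, 125625726 to 125676255 (GRCh38), were therefore taken as CHEK1, a split made after the data were seen. So defined, CHEK1 had 9522, 8997 and 8959 normalised counts in CGG, 10154, 9975 and 10812 in GFP_TRA, 8401, 9580 and 8350 in siTRA, and 8442, 7214 and 8170 in CGG_siTRA, against 8990, 9080 and 9201 in CTL. In these counts, scaled by the authors' size factors, GFP_TRA libraries were all above those of CTL and CGG_siTRA libraries were all below them. The share of all genes so separated was not computed, and CHEK1 passed in no comparison. The log2 differences rest on edgeR's own scaling of the libraries. The median of all genes in CGG_siTRA vs CTL was -0.11 with the authors' factors and 0.01 with edgeR's. Whether the CHEK1 counts of these groups also separate with edgeR's scaling was not computed. With the split, 24.1% of genes passed in CGG vs CTL, 28.5% in GFP_TRA vs CTL, 30.8% in CGG_siTRA vs CTL, 10.1% in CGG_siTRA vs CGG and 31.5% in GFP_TRA vs siTRA. The log2 difference was 0.15 (SE 0.07, adjusted p = 0.087, edgeR) in GFP_TRA vs CTL and -0.07 (SE 0.07, adjusted p = 0.434, edgeR) in CGG_siTRA vs CTL. The joined row passed in all 4 comparisons with CTL, by log2 0.17 to 0.34, and in GFP_TRA vs siTRA. In the comparisons with CTL the neighbour's own bins were 0.21 to 0.36 higher on the log2 scale. The calls of the joined row in siTRA vs CTL were lost when CTL library a or b or siTRA library a or c was left out, with adjusted p of 0.0570 to 0.110 in edgeR. Those in CGG_siTRA vs CTL were lost without CTL library a or b or CGG_siTRA library a or c, with adjusted p of 0.0628 to 0.126 in edgeR. That in GFP_TRA vs siTRA was lost without any 1 of the GFP_TRA libraries or without siTRA library a or b, with adjusted p of 0.0732 to 0.185 in edgeR. With the highest bin standing for the gene, the adjusted p of these 3 calls were 0.0986, 0.0517 and 0.266 in edgeR.

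SMN1 averaged 4610 ± 158 normalised counts in CGG, 5277 ± 418 in GFP_TRA, 4728 ± 212 in siTRA and 4227 ± 638 in CGG_siTRA, against 4581 ± 88 in CTL (SD, n = 3 each). Humans carry a near-identical copy of SMN1, and counts of reads that fit both are uncertain. CD44 averaged 27859 ± 1239 in CGG, 31131 ± 2004 in GFP_TRA, 24791 ± 4001 in siTRA and 25819 ± 1893 in CGG_siTRA, against 26573 ± 762 in CTL (SD, n = 3 each). For both genes the log2 difference from CTL was highest in GFP_TRA, at 0.19 (SE 0.09, adjusted p = 0.127, edgeR) for SMN1 and 0.21 (SE 0.10, adjusted p = 0.113, edgeR) for CD44. With GFP_TRA and CTL fitted alone both passed, SMN1 at 0.18 (adjusted p = 0.0365, edgeR) and CD44 at 0.20 (adjusted p = 0.00966, edgeR). CD44 was 0.25 higher in GFP_TRA than in siTRA (SE 0.10, adjusted p = 0.0618, edgeR), and 0.36 without siTRA library c (adjusted p = 0.00697, edgeR). In CGG_siTRA vs siTRA none of the 5 genes passed, and 0.0134% of all genes did.

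**Figure D1:**
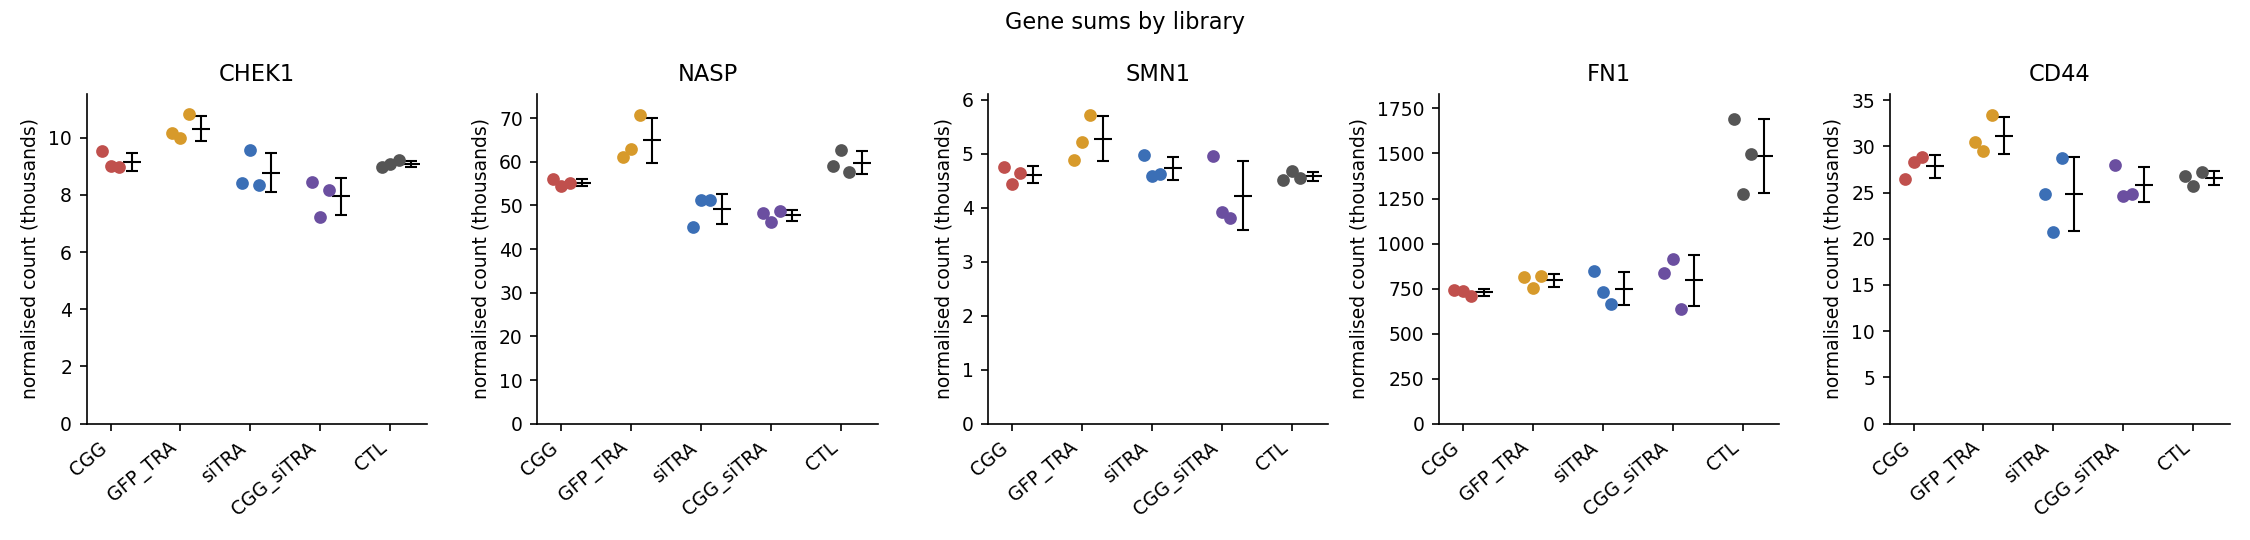
Normalised counts summed over the bins of each gene for the 15 libraries of CGG, GFP_TRA, siTRA, CGG_siTRA and CTL. Each point is a library, and the bar beside it is the mean ± SD. FN1 is lower in all 12 treated libraries than in CTL, NASP is lowest in the 6 knockdown libraries, and CHEK1 is shown from bin 54 on.

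Exon use was described by a ratio per library: the reads per base of an exon divided by the mean reads per base of well covered exon bins on both sides. A read that crosses a border is counted in each bin it touches, which raises the value of short bins. The ratio is therefore no inclusion fraction and is compared between libraries, not between exons. For 9 exons the knockdown difference was taken as the mean of siTRA minus CTL and CGG_siTRA minus CGG on the log2 scale. It was tested by an exact two-sided permutation test within each pair of groups, with 400 arrangements and a smallest possible p of 0.005, chosen after the data were seen. Of the 9 exons, 3 reached that p: the NASP long exon, lower with knockdown, and FN1 EDB and the last part of the FN1 V region, both higher. These p are not adjusted for the 9 exons. The smallest p means that both pairs of groups differ without overlap in 1 direction, which for shares of the gene sum held for 1.32% of all bins downward and 1.24% upward.

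A test of every bin against the rest of its gene, edgeR's diffSpliceDGE, called few bins of these genes. Of the 299 bins above the count minimum it called 0 in CGG vs CTL, 3 in GFP_TRA vs CTL, 0 in siTRA vs CTL, 0 in CGG_siTRA vs CTL, 0 in CGG_siTRA vs CGG, 0 in CGG_siTRA vs siTRA and 2 in GFP_TRA vs siTRA. Unadjusted p under 0.05 were held by 17, 21, 18, 27, 19, 11 and 20 of them, and limma's diffSplice called 3, 11, 5, 2, 3, 3 and 8, in the same order. Over all bins, diffSpliceDGE called 0.25%, 0.368%, 0.508%, 0.53%, 0.135%, 0.0516% and 0.396%. Its unadjusted p were under 0.05 for 3.52%, 3.8%, 6.74%, 4.82%, 3.8%, 5.31% and 6.34% of all bins, and limma's diffSplice called 1.33%, 1.29%, 2.38%, 1.38%, 1.12%, 1.73% and 2.38%. The authors' deposited DEXSeq tables called 22, 21, 9, 46 and 46 of these bins in the first 5 comparisons and 6 in the last, against 2%, 1.32%, 1.83%, 3.87%, 3.34% and 0.595% of all bins.

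The long exon of NASP (chromosome 1, 45607321 to 45608337, 1017 bases, GRCh38) had a lower ratio in all 6 knockdown libraries than in the 9 others. Its ratio was 0.125, 0.131 and 0.123 in siTRA and 0.133, 0.126 and 0.123 in CGG_siTRA. It was 0.159, 0.146 and 0.163 in CGG, 0.160, 0.150 and 0.150 in GFP_TRA, and 0.151, 0.157 and 0.164 in CTL. The knockdown groups overlapped with none of the others, and CGG and GFP_TRA overlapped with CTL. The exon held 2747 to 5658 reads per library. The log2 difference was -0.32 (SE 0.04) in siTRA vs CTL and -0.29 (SE 0.06) in CGG_siTRA vs CGG, which gives 0.81 times the use without knockdown (exact permutation p = 0.005). GFP_TRA minus CTL was -0.04 (SE 0.04, exact permutation p = 0.5).

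The exon spans 5 bins, and the mean use of each was lower in both knockdown groups. By edgeR's diffSpliceDGE their log2 differences ran from -0.32 to -0.19 in siTRA vs CTL, from -0.32 to -0.26 in CGG_siTRA vs CGG and from -0.38 to -0.31 in CGG_siTRA vs CTL. None passed after adjustment over 265486 bins, and the smallest adjusted p were 0.242, 0.666 and 0.0865 in that order. In CGG_siTRA vs CTL bin 27 passed with the 2 groups fitted alone (-0.38, adjusted p = 0.0322, edgeR) and without CGG_siTRA library a (-0.49, adjusted p = 0.0231, edgeR). The authors' deposited table called bins 27, 30 and 31 in siTRA vs CTL, with log2 changes of -0.28 (adjusted p = 1.36e-04), -0.32 (adjusted p = 0.00225) and -0.19 (adjusted p = 0.016). The authors' deposited table for CGG_siTRA vs CGG called bins 29, 30 and 31, with log2 changes of -0.31, -0.26 and -0.28. Over all tested NASP bins that table called 4 higher and 8 lower, so its calls also lay outside the long exon. The siTRA vs CTL table called 0 higher and 4 lower. Of all bins, these tables called 3.34% and 1.83% in that order. In GFP_TRA vs siTRA the authors' deposited table gave bins 27, 30 and 31 log2 changes of 0.26, 0.31 and 0.23. As a share of the gene sum, 2 of the 5 bins were lower in all 6 knockdown libraries than in all 9 others, which held for 0.24% of bins tested. The difference between the knockdown effects with and without the repeat was -0.10 to 0.05 over the 5 bins (smallest adjusted p = 1.0, edgeR).

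Shares of the gene sum also differed at the ends of NASP. Bins 6 to 10 at the start of the gene held 3.14%, 2.74% and 2.90% of its counts in CGG, 2.76%, 2.98% and 3.38% in GFP_TRA, 3.47%, 3.44% and 3.20% in siTRA, 3.25%, 4.25% and 4.11% in CGG_siTRA, and 3.24%, 2.69% and 2.89% in CTL. Bins 55 to 57 at its end held 0.950%, 1.08% and 1.10% in CGG, 0.984%, 1.10% and 0.953% in GFP_TRA, 0.912%, 0.952% and 0.869% in siTRA, 0.767%, 0.940% and 0.693% in CGG_siTRA, and 1.17%, 1.12% and 1.07% in CTL. The knockdown groups lay below CTL at the end of the gene without overlap, while CGG overlapped there with both siTRA and CTL, and siTRA overlapped with CTL at its start. These runs were picked after their values were seen. Their part in the long exon's share of the gene sum was not tested. The ratio to flanking exons, which does not use the ends, gave a knockdown difference of -0.30, and the share of the gene sum gave -0.28 (exact permutation p = 0.005 for both).

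**Figure D2:**
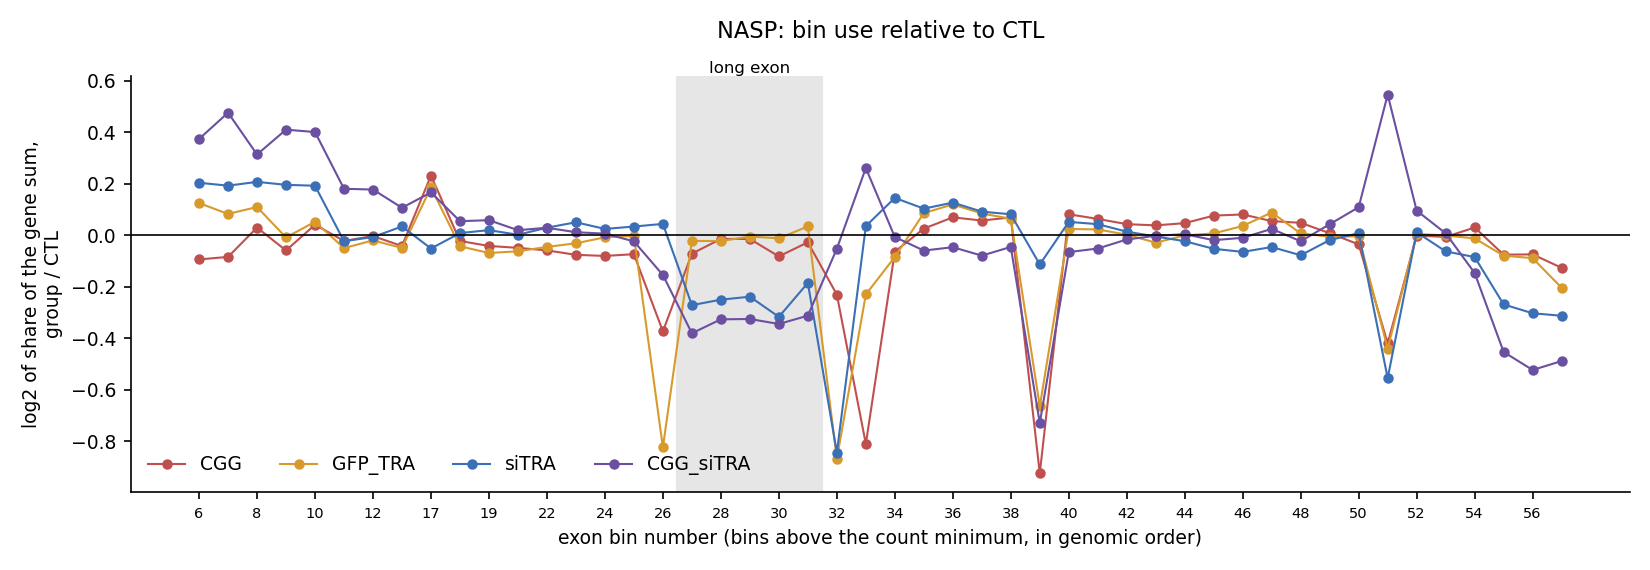
Log2 of each NASP bin's share of the gene sum, relative to CTL, for CGG, GFP_TRA, siTRA and CGG_siTRA, with bins above the count minimum in genomic order. The 5 bins of the long exon, shaded, lie below 0 in both knockdown groups and near 0 in CGG and GFP_TRA.

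The third covered exon of CHEK1 (chromosome 11, 125627607 to 125627830, 224 bases, GRCh38), taken by its order as the exon skipped on loss of TRA2, did not fall beyond the spread. Its ratio was 0.278, 0.285 and 0.267 in siTRA and 0.279, 0.268 and 0.265 in CGG_siTRA. It was 0.277, 0.285 and 0.292 in CGG, 0.268, 0.282 and 0.292 in GFP_TRA, and 0.288, 0.269 and 0.278 in CTL. The groups overlapped, and the knockdown difference was -0.04 on the log2 scale (exact permutation p = 0.145). In siTRA vs CTL it was -0.01 (SE 0.04) and in CGG_siTRA vs CGG -0.07 (SE 0.03). The exon held 718 to 1092 reads per library. The labels name TRA2A alone as the target, and the level of TRA2B is not given, since no file pairs its ID with a name.

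The authors' deposited tables called CHEK1 bins as less used in the treated groups: 10 bins in CGG vs CTL, 7 in GFP_TRA vs CTL, 1 in siTRA vs CTL and 10 in CGG_siTRA vs CTL. Each count is out of 37 CHEK1 bins. Of all bins, these tables called 2%, 1.32%, 1.83% and 3.87% in that order, in either direction. The authors' deposited table gave bin 72, in the third covered exon, a log2 change of -0.23 in CGG vs CTL (adjusted p = 0.00675), in cells without knockdown. Those tables set each bin against the joined row, in which the neighbour was higher in every treated group. Against CHEK1 alone, bins 71 and 72 differed by -0.03 and 0.01 in CGG vs CTL and by -0.12 and -0.06 in siTRA vs CTL (adjusted p = 1.0 for each, edgeR diffSpliceDGE). A further bin of the joined row passed in GFP_TRA vs siTRA, at -0.47 (SE 0.11, adjusted p = 0.0466, edgeR). It lies in the neighbour at 125621227 to 125621405, and its level in siTRA library b, 589 normalised counts, stood above 384 to 429 in the other siTRA libraries. Without that library it was -0.25 (adjusted p = 1.0, edgeR), and the call was also lost without GFP_TRA library a (adjusted p = 0.347, edgeR) or b (adjusted p = 0.562, edgeR).

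Exon 7 of SMN1 (chromosome 5, 70951941 to 70951994, 54 bases, GRCh38) had a ratio of 2.01 to 2.10 in all 15 libraries. It averaged 2.05 ± 0.014 in CGG, 2.07 ± 0.013 in GFP_TRA, 2.05 ± 0.041 in siTRA and 2.08 ± 0.013 in CGG_siTRA, against 2.07 ± 0.026 in CTL (SD, n = 3 each). The knockdown difference was 0.01 on the log2 scale (exact permutation p = 0.69). By diffSpliceDGE the bin's log2 difference lay between -0.03 and 0.03 in all 7 comparisons. CGG_siTRA stood above CGG without overlap, by 0.02 (SE 0.01), and 17.6% of all bins had shares of the gene sum without overlap in that comparison. No authors' table called an SMN1 bin among those tested here, 14 of its 25 bins in the DEXSeq tables. At the start of the gene, bins 8 to 12 held 260, 33.8 and 261 normalised counts in siTRA, against 176, 279 and 257 in CTL, so siTRA library b stood apart there.

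**Figure D3:**
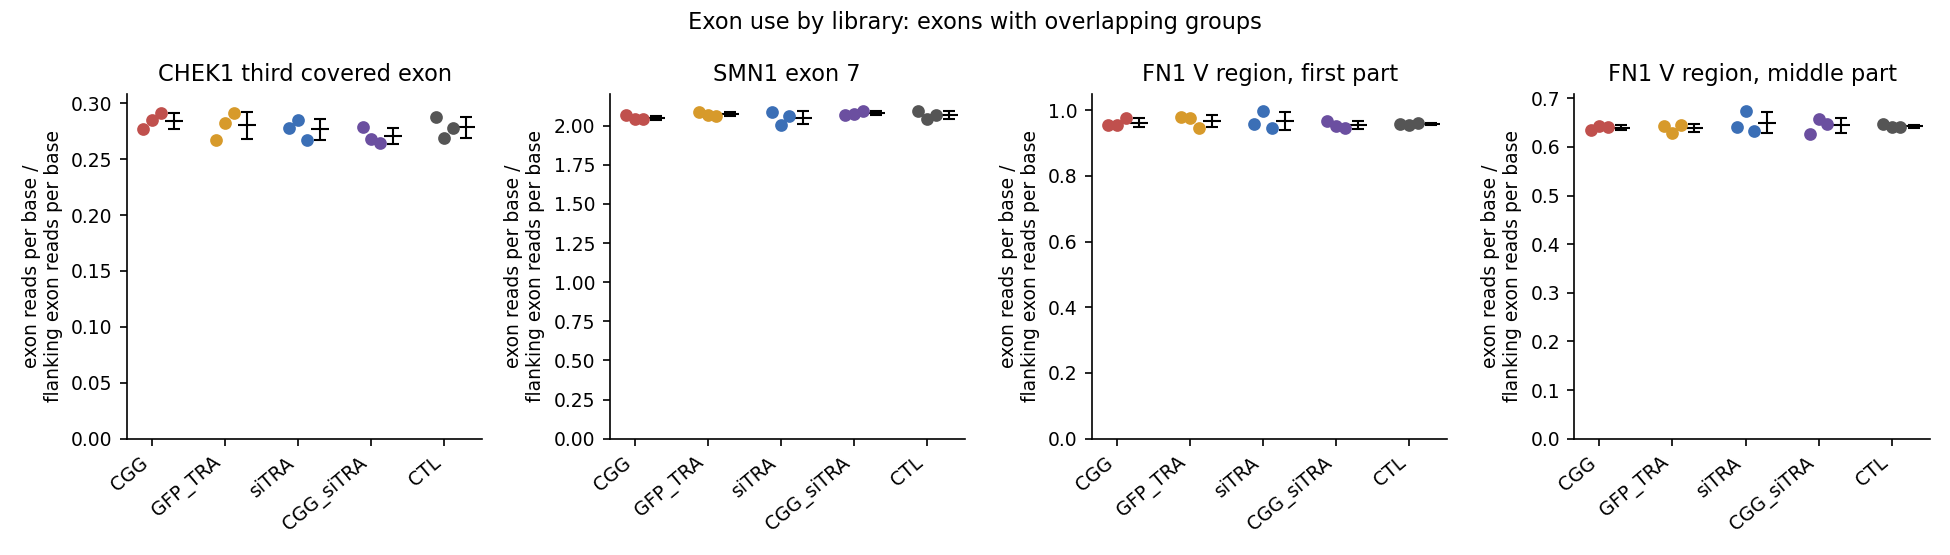
Ratio of exon reads per base to flanking exon reads per base for the third covered exon of CHEK1, exon 7 of SMN1, and the first and middle parts of the FN1 V region, in CGG, GFP_TRA, siTRA, CGG_siTRA and CTL. Points are libraries and bars are mean ± SD, and in each of the 4 exons most groups overlap.

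In FN1 the EDA exon (chromosome 2, minus strand, 215380811 to 215381080, 270 bases, GRCh38), a fibronectin type III repeat, had its highest ratios in cells with raised TRA2A. Its ratio was 0.528, 0.526 and 0.513 in GFP_TRA, and 0.479 to 0.495 in the 12 other libraries. CGG had 0.494, 0.495 and 0.488, siTRA 0.488, 0.488 and 0.484, CGG_siTRA 0.485, 0.485 and 0.486, and CTL 0.481, 0.479 and 0.485. All 3 GFP_TRA libraries lay above all others, also as a share of the gene sum, which held for 0.223% of bins, among them also EDB bin 59 and CHEK1 bin 80. Lower shares in all 3 GFP_TRA libraries, seen for 0.362% of bins, were found at FN1 bins 16, 44 and 57. The log2 difference was 0.12 (SE 0.01) in GFP_TRA vs CTL and 0.10 (SE 0.01) in GFP_TRA vs siTRA, each with the smallest p that 3 against 3 allows (exact permutation p = 0.1). Shares of the gene sum did not overlap between the groups for 13.4% and 12.7% of all bins in these comparisons. By diffSpliceDGE they were 0.13 and 0.17 and did not pass (adjusted p = 1.0 for both, edgeR). The authors' deposited table called the exon in GFP_TRA vs siTRA (log2 0.18, adjusted p = 0.0235). In GFP_TRA vs CTL the authors' deposited table did not call it (log2 0.12, adjusted p = 0.0776). The knockdown difference was 0.00 (exact permutation p = 0.665), and its parts had opposite signs, 0.01 (SE 0.0065) in siTRA vs CTL and -0.02 (SE 0.0057) in CGG_siTRA vs CGG, where the groups did not overlap. As a share of the gene sum it was -0.08 (exact permutation p = 0.015).

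Thinly covered bins on both sides of EDA fell in GFP_TRA. Bin 44, 673 bases at 215381330 to 215382002, had 25.4, 31.1 and 41.5 normalised counts in GFP_TRA. CGG had 65.1, 54 and 58.5, siTRA 75.3, 119.7 and 44.9, CGG_siTRA 82.3, 119.0 and 41.4, and CTL 197.6, 152.5 and 189.3. Relative to the rest of FN1, which itself was lower than in CTL, bin 44 differed in GFP_TRA vs CTL by log2 -1.57 (SE 0.32, adjusted p = 0.00134, edgeR diffSpliceDGE). Bin 43 differed by -1.34 (SE 0.29, adjusted p = 0.00375, edgeR) and bin 41, on the other side, by -0.92 (SE 0.20, adjusted p = 0.00436, edgeR). They were the 3 of 299 bins tested in these genes that passed there. The same bins were low in CGG, which differed from CTL by -0.57 at bin 44 (adjusted p = 1.0), -0.79 at bin 43 (adjusted p = 0.501) and -0.60 at bin 41 (adjusted p = 0.366), with no call in edgeR's diffSpliceDGE. The authors' deposited table called all 3 in CGG vs CTL, by log2 -0.58, -0.80 and -0.60 in that order. Bin 44 also passed in GFP_TRA vs siTRA, at -1.36 (SE 0.34, adjusted p = 0.0271, edgeR). Bins 43 to 47 together held 0.0199%, 0.0200% and 0.0238% of FN1 counts in GFP_TRA, below the 0.0292% to 0.0620% of all other libraries. This run was picked after its values were seen and includes the called bins 43 and 44, so its separation is no further support. The share of such runs so separated over all genes was not computed. CGG had 0.0358%, 0.0292% and 0.0362%, below the 0.0505% to 0.0517% of CTL. The calls were not stable to the loss of a library: against CTL 0 of 3 were left without GFP_TRA library b, 2 without GFP_TRA library a, and 1 without GFP_TRA library c or without CTL library c. Against siTRA, bin 44 lost its call without GFP_TRA library a (-1.20, adjusted p = 0.415, edgeR), GFP_TRA library b (-1.37, adjusted p = 0.229, edgeR) or siTRA library b (-0.97, adjusted p = 1.0, edgeR). Thinly covered bins beside EDB were low in more than one group. Bin 57 held 0.0145% of FN1 counts in CGG, 0.0111% in GFP_TRA, 0.0143% in siTRA and 0.0173% in CGG_siTRA, against 0.0178% in CTL. Bin 60 held 0.00468% in CGG, 0.00438% in GFP_TRA, 0.00559% in siTRA and 0.00792% in CGG_siTRA, against 0.00796% in CTL. The authors' deposited tables called bin 60 in CGG vs CTL (log2 -0.74, adjusted p = 8.57e-04) and in GFP_TRA vs CTL (log2 -0.86, adjusted p = 3.55e-05).

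The EDB exon (215392931 to 215393203, 273 bases), another type III repeat, had a higher ratio in every treated library than in CTL. Its ratio was 0.440, 0.430 and 0.429 in CGG, 0.469, 0.477 and 0.485 in GFP_TRA, 0.470, 0.434 and 0.457 in siTRA, and 0.458, 0.468 and 0.465 in CGG_siTRA, against 0.391, 0.382 and 0.391 in CTL. The log2 difference from CTL was 0.16 (SE 0.02), 0.30 (SE 0.02), 0.23 (SE 0.04) and 0.26 (SE 0.01) in that order, each with an exact permutation p = 0.1. In CGG_siTRA vs CGG it was 0.10 (SE 0.02), and the knockdown difference over both pairs was 0.16 (exact permutation p = 0.005). As a share of the gene sum it was 0.10 (exact permutation p = 0.08). diffSpliceDGE called no EDB bin, with a log2 difference of 0.27 to 0.28 in GFP_TRA vs CTL (adjusted p = 1.0, edgeR). The authors' deposited tables called both EDB bins in all 4 comparisons with CTL, by log2 0.13 to 0.28. In CGG_siTRA vs CGG the authors' deposited table gave them 0.02 and -0.05, with no call.

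Of the V region, the last part (215372016 to 215372108, 93 bases), which can be spliced out on its own, was also higher in the treated libraries. Its ratio was 0.147, 0.148 and 0.144 in CGG, 0.154, 0.148 and 0.155 in GFP_TRA, 0.164, 0.147 and 0.164 in siTRA, and 0.163, 0.160 and 0.167 in CGG_siTRA, against 0.131, 0.135 and 0.133 in CTL. Again all 12 treated libraries lay above CTL, and CGG_siTRA lay above CGG, by log2 0.16 (SE 0.02). The knockdown difference was 0.20 (exact permutation p = 0.005). By diffSpliceDGE the bin of this last part differed by 0.28 in siTRA vs CTL (adjusted p = 0.794, edgeR) and by 0.24 in CGG_siTRA vs CGG, with no call. For the first part the knockdown difference was 0.00 (exact permutation p = 0.93), and for the middle part 0.01 (exact permutation p = 0.465). As shares of the gene sum they were 0.06 (exact permutation p = 0.045) and 0.07 (exact permutation p = 0.01). EDB and the last part of the V region differed from CTL in CGG and GFP_TRA as well as in both knockdown groups. The cause of these differences was not tested. As shares of the gene sum, both EDB bins and this bin were higher in all 12 treated libraries than in CTL, which held for 0.623% of all bins. The FN1 sum was lower in the same libraries, and its part in these ratios was not tested.

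**Figure D4:**
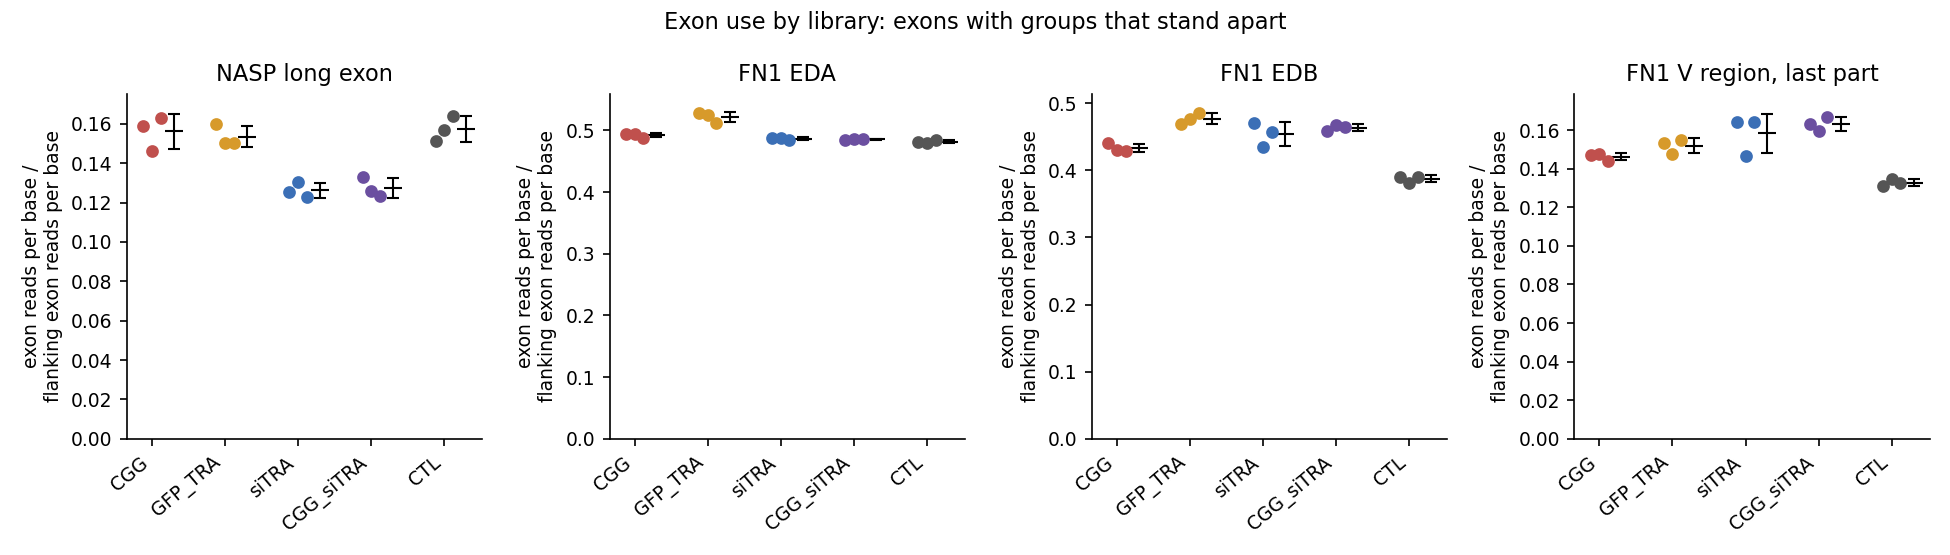
Ratio of exon reads per base to flanking exon reads per base for the NASP long exon, FN1 EDA, FN1 EDB and the last part of the FN1 V region, in CGG, GFP_TRA, siTRA, CGG_siTRA and CTL. Points are libraries and bars are mean ± SD. The NASP exon is low in both knockdown groups, EDA is highest in GFP_TRA, and EDB and the V part are lowest in CTL.

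**Figure D5:**
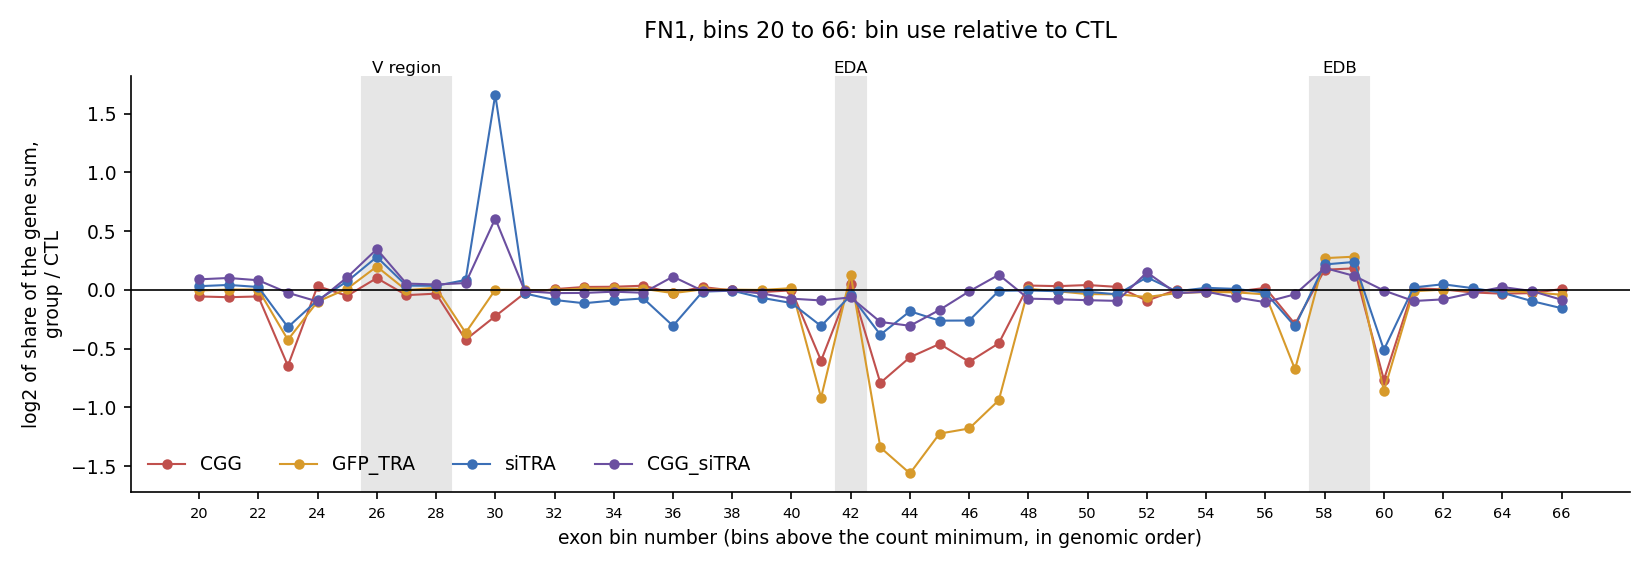
Log2 of the share of the gene sum, relative to CTL, for FN1 bins 20 to 66 in CGG, GFP_TRA, siTRA and CGG_siTRA. V region, EDA and EDB are shaded, and the dip of GFP_TRA at bins 41 and 43 to 47 is in thinly covered bins beside EDA.

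The variable exons of CD44 had few reads in all groups. The 6 variable exons with covered bins (chromosome 11, 35196746 to 35211449, GRCh38) had a ratio of 0.00698 to 0.00938 in CGG, 0.00870 to 0.0119 in GFP_TRA, 0.00467 to 0.00775 in siTRA and 0.00731 to 0.00909 in CGG_siTRA, against 0.00722 to 0.0129 in CTL. Their 17 bins held 79 to 326 counts per library in all, so a change could be seen only if large. The knockdown difference was -0.35 on the log2 scale (exact permutation p = 0.18), and its parts had opposite signs, -0.76 (SE 0.33) in siTRA vs CTL and 0.06 (SE 0.17) in CGG_siTRA vs CGG. GFP_TRA lay above siTRA without overlap, by 0.68 (SE 0.26, exact permutation p = 0.1). No variable bin passed diffSpliceDGE in any of the 7 comparisons. limma's diffSplice called bin 37 in CGG vs CTL (log2 -1.06, adjusted p = 0.0337, limma) and in CGG_siTRA vs CGG (1.10, adjusted p = 0.0242, limma). It also called bins 49 (-1.26, adjusted p = 0.00238, limma) and 50 (-1.05, adjusted p = 0.0223, limma) in siTRA vs CTL. The knockdown difference of bin 37 with the repeat exceeded that without it by 1.76 in the same test (adjusted p = 0.00434, limma). That test called 1.5% of all bins. Bin 37 held only 0 to 14.6 normalised counts per library, and bins 49 and 50 are neighbours of 3 and 8 bases. By edgeR's diffSpliceDGE the same contrast ran from -0.17 to 1.25 over the 16 variable bins tested (smallest unadjusted p = 0.0649), with no call. Outside the variable exons, bin 23 of CD44, 25 bases long, had a lower share of the gene sum in all 6 knockdown libraries than in the 9 others, as did the pair of NASP bins. Bin 20, 5 bases long, had a lower share in all 12 treated libraries than in CTL, which held for 0.594% of all bins.

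The authors' EventPointer tables list 15 events in these genes per comparison, 10 in FN1 and 5 in NASP, and none in the other 3 genes. The change in percent spliced in, given as a fraction, was read as the first group minus the second. Read so, its sign matched that of the bin share at 30 of 35 cassette exons of the CGG vs CTL table. The match was 30 of 34 for GFP_TRA vs CTL, and 7 of 9 for CGG_siTRA against siTRA. Of these 75 entries, 3 in the authors' deposited tables had a p under 0.05, against 6.31% to 8.87% of all events per table. The authors' deposited table for CGG vs CTL gave -0.0364 for an alternative first exon of NASP (p = 0.00317). The authors' deposited table for GFP_TRA vs CTL gave 0 for a complex NASP event (p = 0.0365). The authors' deposited table for CGG_TRA vs CGG_siTRA gave 0.0479 for a complex event over EDA (p = 0.0396). The same event had 0.0434 in CGG_TRA vs CGG (p = 0.0611), 0.0616 in GFP_TRA vs CTL (p = 1.0), 0.0165 in CGG vs CTL (p = 1.0) and -0.00523 in CGG_siTRA vs siTRA (p = 0.712) in the authors' deposited tables. The EDB cassette had 0.0304 in CGG vs CTL and 0.0663 in GFP_TRA vs CTL in the authors' deposited EventPointer tables, with a p of 1.0 in both. In the authors' deposited tables it had 0.0352 in CGG_TRA vs CGG (p = 0.119) and -0.0043 in CGG_TRA vs CGG_siTRA (p = 0.684). The retained intron event over the last part of the V region had 0.012 in CGG vs CTL, 0.015 in GFP_TRA vs CTL and 0.00854 in CGG_siTRA vs siTRA. In CGG_TRA vs CGG it had -0.00369, and in CGG_TRA vs CGG_siTRA -0.0271. A wider complex event over the V region ran from -0.0587 to 0.0388. Neither event had a p under 0.05 in the authors' deposited tables. The 2 events over the stretch of the NASP long exon, listed as an alternative last and first exon, had 0.0610 and 0.0532 in CGG_TRA vs CGG_siTRA in the authors' deposited table, with p of 0.979 and 0.990. In the other comparisons the first ran from -0.0102 in GFP_TRA vs CTL to 0.0207 in CGG_TRA vs CGG. The second ran from -0.0173 in GFP_TRA vs CTL to 0.00316 in CGG vs CTL, and neither had a p under 0.05.

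Over the 15 libraries the gene whose log2 level followed NASP most closely among 13283 others was ENSG00000107672.14, with a Pearson correlation of 0.972, and for FN1 it was ENSG00000053747.15, at 0.979. The libraries share their groups, so these are descriptions without a test.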

How the data were processed

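Total RNA was treated with DNase and depleted of ribosomal RNA before TruSeq libraries were made, per the labels' protocols. The submitters' processing notes name cutadapt 1.14, STAR 2.5.2, DESeq2 with no version or role, and the human build GRCh38.p10, so reads of monkey cells were set against human genes, and genes that differ between the species may lose reads. The authors deposited normalised counts per exon bin, a signal equal to counts divided by a size factor per library. Whole reads were recovered from these values for 100.0% of them within 0.1 of a whole number, and 0 of 14640744 values differed from the counts in the authors' DEXSeq tables. The authors' deposited DEXSeq tables hold counts, log2 fold changes and p-values, and the sign was turned where needed to give the treated group over its control. The authors' deposited EventPointer tables hold p-values and 2 scores, a z value and the percent-spliced-in difference between -1 and 1.

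Recovered counts were summed per gene and tested with the quasi-likelihood test of edgeR 4.0.16 in R 4.3.3, with all 5 groups in one fit. edgeR scaled the libraries by the trimmed mean of M values, while the printed normalised counts use the authors' size factors. Genes and bins with at least 10 normalised counts in at least 3 libraries were kept, and bins were tested with diffSpliceDGE. Both used Benjamini-Hochberg adjustment over all genes or bins and a threshold of 0.05. Of 14969 genes and 265486 bins tested, 299 bins lie in these genes, and 74 more of those in the DEXSeq tables fell below the minimum. A bin sum counts a read once for each bin it touches. DESeq2 1.42.0 and limma 3.58.1 were alternatives. On simulated counts 74% of genes changed 1.5-fold and 84% of genes changed 2-fold were recovered for siTRA vs CTL, and 32% and 88% of bins. In each simulation 200 genes or bins were raised and the others left unchanged, whereas 38% of genes passed in the real comparison. Of the 169 simulated gene calls, 11 were false. Changes below 1.5-fold were not simulated, so these rates are not the power of the real tests. The changed bins were drawn only from those with a mean well above the count minimum. Recovery of thinly covered bins, such as the variable ones of CD44, was therefore not measured.

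The members, the exons and the gene lists were chosen with earlier results of these data known. Lists of pathway genes and markers were not tested, because 0 of their symbols could be paired with IDs. Named are the 5 genes, their known exons, at most 5 bins a gene past the threshold whose groups do not overlap, the gene taken as TRA2A and genes most like a member by Pearson correlation. Runs of bins at the NASP ends, SMN1 bins 8 to 12 and FN1 bins 43 to 47 were picked after their values were seen. So were FN1 bins 57 and 60, CHEK1 bin 80 and CD44 bins 20 and 23. Flanking bins of the exon ratio, the split of the CHEK1 row and the exact test within pairs were chosen after the data were seen. Sequences are not given here.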

Additional observations from a re-analysis of the deposited data

Results flagged for a closer look

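The knockdown difference of the FN1 gene sum differed between cells with and without the repeat, by a log2 interaction of 1.161 (SE 0.17, adjusted p = 1.42e-04, edgeR quasi-likelihood test). FN1 was 0.23 higher in CGG_siTRA than in CGG and 0.93 lower in siTRA than in CTL on that scale (log2 differences of 0.23 and -0.93). The CTL level enters the second difference alone.

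The row that joins CHEK1 with its neighbour had an interaction of -0.2732 (adjusted p = 0.0293, edgeR). It lost the threshold without CTL library a or b, CGG library a or c, siTRA library c or CGG_siTRA library b, with adjusted p of 0.0618 to 0.0812 in edgeR, and with the highest bin standing for the gene (adjusted p = 0.185, edgeR). For the CHEK1 bins alone it was -0.11 (SE 0.09, adjusted p = 0.435, edgeR), and for the neighbour's bins -0.30 (SE 0.09, adjusted p = 0.0229, edgeR).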

How the results depend on the processing

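Across settings, 458 gene-level values kept their side of the threshold and direction, 39 lost and 7 gained a call, and 1 reversed: CHEK1 in CGG_siTRA vs CTL, -0.073312 with the row split (log2). Of the bins, 3120 values were unchanged in this sense, 18 lost and 9 gained a call. A call could be lost only where the main fit had one. For bins these were 3 in GFP_TRA vs CTL and 2 in GFP_TRA vs siTRA, and all 18 losses fell on them. Most unchanged values, of bins and of genes, had no call to lose, so these counts do not measure how stable the calls were. Of the exon ratios 113 were unchanged, 1 lost and 3 gained a call.

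Among the 5 genes, calls with 1 library left out ranged from 2 to 2 in CGG vs CTL, 2 to 2 in GFP_TRA vs CTL, 1 to 3 in siTRA vs CTL, 1 to 3 in CGG_siTRA vs CTL, 0 to 1 in CGG_siTRA vs CGG and 1 to 3 in GFP_TRA vs siTRA. In these fits 17.2% to 19.2%, 20.2% to 23.7%, 30.9% to 37.8%, 23.8% to 30.9%, 6.31% to 11.4% and 22.7% to 30.8% of all genes passed, in that order. Splitting the CHEK1 row gave 1 in CGG vs CTL, GFP_TRA vs CTL and GFP_TRA vs siTRA. A fit of the compared groups alone gave 4 in GFP_TRA vs CTL (39% of all genes) and 1 in GFP_TRA vs siTRA (20.8%). No filter gave 1 in GFP_TRA vs siTRA (22.2%), and the authors' size factors gave 2 in CGG_siTRA vs CGG (15.6%). The highest bin standing for the gene gave 1 in CGG_siTRA vs CTL (28.2%), in GFP_TRA vs siTRA (29.7%) and in the interaction (15.4%). With the authors' factors the median log2 difference of all genes in CGG_siTRA vs CTL was -0.11, against 0.01 with edgeR's scaling. The interaction called 2 genes, 1 after the split, and 1 to 2 with a library left out.

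Bins called ranged from 0 to 0, 0 to 3, 0 to 1, 0 to 3, 0 to 1, 0 to 0 and 0 to 3 over the 7 comparisons with 1 library left out. The compared groups alone gave 3 in CGG vs CTL, 4 in CGG_siTRA vs CTL, 1 in CGG_siTRA vs CGG and 1 in GFP_TRA vs siTRA, and a count minimum of 5 gave 1 in GFP_TRA vs siTRA. limma's diffSplice gave 3, 11, 5, 2, 3, 3 and 8 over the 7 comparisons, and the authors' DEXSeq tables gave 22, 21, 9, 46 and 46 over the first 5 and 6 in GFP_TRA vs siTRA. limma called 5 bins in the interaction (1.5% of all bins), which called 0 to 1 with a library left out. The exact test called 3 exons with each library left out. Groups without overlap stay so when a library is removed, so these 3 exons could not have lost the call. Of the EventPointer entries, 3 had p under 0.05, 1 under 0.01 and 0 after Benjamini-Hochberg adjustment. The cause of these changes was not tested. No paired analysis was possible because the columns carry no replicate number that the labels tie to a sample.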
